A study of Mus musculus with 12 samples.

Results

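The nuclear-encoded subunits of oxidative phosphorylation were followed through 12 RNA-seq libraries of mouse kidney. The rule that chose them reads gene symbols and no measured value, though the set was picked with earlier results of these data known: names beginning with Ndufa, Ndufb, Ndufc, Ndufs or Ndufv and a number, the 4 Sdh genes, names beginning with Uqcr, and the lettered Cox4 to Cox8 and Atp5 families. Of 24421 gene symbols in the deposited table, 84 met this rule, 37 of complex I, 4 of complex II, 8 of complex III, 18 of complex IV and 17 of complex V. Where a symbol had several RefSeq transcripts, the transcript with the highest total count stood for the gene, which concerned 16 of the 84. The symbols are not a perfect guide to function: RefSeq now lists Atp5sl as Dmac2 and Atp5s as Dmac2l, and the Ndufa4 protein is also regarded as a component of complex IV. These genes were counted by symbol throughout, Atp5sl and Atp5s under complex V and Ndufa4 under complex I.

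The study asked what the DNA demethylase Tet2 contributes to the kidney before and after ischemia reperfusion (IR) injury. All mice were males on the C57BL/6 background (C57BL/6J in the study's methods), 6 weeks old, and total RNA came from frozen kidney tissue. The groups, each of 3 libraries, were WT baseline and Tet2-/- baseline, which had no operation, and WT IR and Tet2-/- IR, in which the right renal pedicle was clamped for 60 min, the left kidney was then removed and the clamped kidney was taken 24 h later. Tet2-/- mice were germline knockouts bred from heterozygous pairs, so any effect of the genotype may come from any organ and from development. No sham-operated libraries were analysed here, so an IR difference also holds the effect of surgery and of losing the other kidney. Tet2 transcript itself measured 9.15, 6.25 and 7.33 FPKM (fragments per kilobase of transcript, relative to library size) in WT baseline and 9.25, 16.6 and 10.3 in the baseline libraries labelled Tet2-/-, so its level did not check that label at baseline. It measured 9.34, 3.97 and 3.86 FPKM in WT IR and 2.64, 3.20 and 1.76 in Tet2-/- IR, where the groups did not overlap. For these reasons Tet2-/- denotes the labelled genotype throughout.

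Oxidative phosphorylation takes electrons from NADH at complex I and from succinate at complex II, passes them through complexes III and IV to oxygen, and uses the resulting proton gradient to drive ATP synthesis at complex V. Most subunits are encoded in the nucleus and imported, while a small core set is encoded by mitochondrial DNA and must be matched to them. The proximal tubule and the thick ascending limb hold many mitochondria, because the reabsorption of sodium, phosphate and glucose runs on ATP. The mitochondrially encoded partners were not analysed here.

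Promoters of subunit genes are known for sites of NRF1, of the ETS-family factor GABP, of YY1 and of estrogen-related receptors. The letters of each motif were searched on both strands in RefSeq promoters (GRCm38.p6, 250 bases before to 50 after the transcript start), which could be matched to 69 of the 84 genes. The NRF1 letters GCGCANGCG stood in 20 of the 69 promoters (29.0%), against 7.03% of the promoters of 27025 genes. The ETS letters CCGGAAG stood in 16 (23.2%, against 9.93%), the YY1 letters AAGATGGCG in 8 (11.6%, against 1.64%) and the estrogen-related receptor letters TCAAGGTCA in 2 (2.90%, against 0.466%). At least 1 of the 4 motifs occurred in 36 of the 69 (52.2%, against 16.9%). The 27025 genes were neither limited to those expressed in kidney nor matched for base composition, so these contrasts are not particular to the subunits. By complex, the NRF1 letters were in 8 of 32 promoters of complex I, 2 of 3 of complex II, 2 of 5 of complex III, 1 of 13 of complex IV and 7 of 16 of complex V. A match is a run of letters and not a measured binding site, and no binding or methylation was measured in these libraries.

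The 250 bases before the start are shown for 3 complex II genes, whose transcripts changed by unequal amounts, and for Cox7a1 and Cox7a2, an isoform pair whose members differed in the size of their IR difference. All are written 5′ to 3′ on the gene's own strand, with motif matches in capitals. Sdha lies at chr13:74350241-74350490 (minus strand), Sdhb at chr4:140961021-140961270 (plus), Sdhd at chr9:50603850-50604099 (minus), Cox7a1 at chr7:30183921-30184170 (plus) and Cox7a2 at chr9:79759854-79760103 (minus), all in GRCm38.p6.
Sdha: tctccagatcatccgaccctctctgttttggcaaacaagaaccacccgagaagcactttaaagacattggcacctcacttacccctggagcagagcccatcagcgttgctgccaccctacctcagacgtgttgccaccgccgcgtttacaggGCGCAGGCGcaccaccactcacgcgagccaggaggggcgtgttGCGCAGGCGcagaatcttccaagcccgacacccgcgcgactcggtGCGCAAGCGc
Sdhb: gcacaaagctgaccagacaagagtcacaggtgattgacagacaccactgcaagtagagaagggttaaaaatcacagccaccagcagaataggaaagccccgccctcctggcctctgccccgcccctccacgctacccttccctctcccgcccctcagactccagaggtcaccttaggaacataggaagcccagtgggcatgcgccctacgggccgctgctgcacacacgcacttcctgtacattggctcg
Sdhd: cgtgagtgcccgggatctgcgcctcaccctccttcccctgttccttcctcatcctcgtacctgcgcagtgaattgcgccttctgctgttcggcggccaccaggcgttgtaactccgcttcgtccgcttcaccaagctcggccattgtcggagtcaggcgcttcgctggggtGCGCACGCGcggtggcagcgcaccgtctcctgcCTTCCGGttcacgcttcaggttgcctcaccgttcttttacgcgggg
Cox7a1: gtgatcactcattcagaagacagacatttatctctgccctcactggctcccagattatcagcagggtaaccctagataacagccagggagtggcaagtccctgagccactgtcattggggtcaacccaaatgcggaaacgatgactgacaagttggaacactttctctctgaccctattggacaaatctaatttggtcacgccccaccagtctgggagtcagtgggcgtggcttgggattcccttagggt
Cox7a2: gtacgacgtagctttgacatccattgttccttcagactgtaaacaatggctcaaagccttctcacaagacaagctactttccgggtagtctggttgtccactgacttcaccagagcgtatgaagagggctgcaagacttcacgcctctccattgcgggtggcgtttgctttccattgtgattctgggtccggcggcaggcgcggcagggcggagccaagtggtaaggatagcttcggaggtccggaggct
The capitals in Sdha mark 3 matches to the NRF1 letters, 98 to 90, 55 to 47 and 10 to 2 bases before the start. Those in Sdhd mark an NRF1 match 79 to 71 bases before the start and, read on the opposite strand, an ETS match 46 to 40 bases before it. Sdhb has an ETS match and Sdhd an estrogen-related receptor match after the start, outside the bases shown, and the promoters of Cox7a1 and Cox7a2 held none of the 4 motifs.

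Counts over the transcripts used summed to between 51007362 and 107969879 per library. Subunit transcripts are short, with a median length of 680.5 bases against 2117 for all genes, and abundant: 61 of the 84 reached 100 FPKM on average in WT baseline and only 4 were under 1 FPKM. Together they took 2.67, 2.92 and 2.51% of all counts in WT baseline and 2.98, 2.73 and 3.07% in Tet2-/- baseline. After IR the share was 2.60, 2.18 and 2.42% in WT and 1.75, 1.75 and 2.05% in Tet2-/-. The Tet2-/- IR libraries were below every other library, whereas WT IR overlapped WT baseline.

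**Figure D1:**
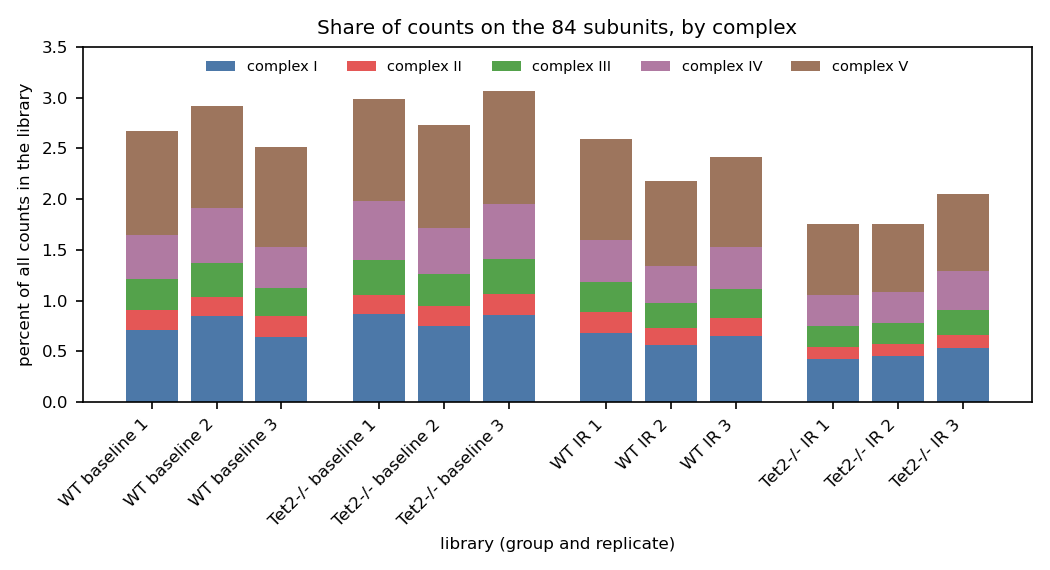
Percent of each library's counts taken by the 84 subunit genes (vertical axis) in the 12 libraries (horizontal axis, by group); each bar is 1 library, with complexes I to V stacked. The Tet2-/- IR libraries lie between 1.75 and 2.05% and the other 9 between 2.18 and 3.07%.

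Several libraries stood apart in ways that the groups do not explain. The summed level of 10 adipocyte markers was 69.7, 158 and 336 FPKM in WT baseline, 49.4 to 85.5 in Tet2-/- baseline, 22.1 to 81.8 in WT IR, and 124, 91.1 and 625 in Tet2-/- IR, so replicates 2 and 3 of WT baseline and replicate 3 of Tet2-/- IR were the highest in fat transcripts. Replicate 3 of Tet2-/- IR also had the lowest summed level of 8 thick ascending limb and distal tubule markers, at 430 FPKM, against 2210 and 2750 in the other libraries of its group. That sum was 1892, 902 and 2143 FPKM in WT baseline and 1227, 1843 and 1107 in Tet2-/- baseline. In each of these groups the libraries low in this sum had the highest summed subunit levels. In WT IR, replicate 3 was lowest in this sum and replicate 1 highest in subunits. A link between the sums was not tested. Counts of calls are given with and without the libraries high in adipocyte markers, as are the named genes that lose a call without them. In RNA from mixed kidney tissue, fewer cells of a type and less RNA per cell cannot be told apart. The study's text gives the kidneys of a group as those of separate mice, while the labels do not name the animal behind a library.

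The baseline comparison asked whether the subunits differed between genotypes in uninjured kidney. No subunit passed the test in either direction, while across all 16086 genes 0.0124% were higher and 0% lower at an adjusted p under 0.05 (edgeR quasi-likelihood test with Benjamini-Hochberg adjustment over all genes tested, used for every adjusted p below). The signs nevertheless leaned one way: 78 of the 82 tested subunits had a positive log2 fold change in Tet2-/-, with a median of 0.25 against 0.00 for all genes and 0.16 for genes of similar transcript length, taken as those within the middle 50% of the subunits' lengths. Positive signs were found for 8133 of all 16086 genes and for 1204 of the 1661 tested genes of similar length. With the trend of fold change on transcript length taken out, the median subunit stood at 0.096. At an unadjusted p under 0.05, 7 subunits were higher and 1 lower, beside 3.56 and 8.20% of all genes. In TMM-scaled counts, every Tet2-/- library lay above every WT library for 16 subunits and below for 1, beside 7.93 and 10.8% of all genes.

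At baseline the medians by complex were 0.26 for complex I, 0.09 for complex II, 0.22 for complex III, 0.24 for complex IV and 0.24 for complex V. Sdhc, a membrane anchor of succinate dehydrogenase, measured 214, 254 and 203 FPKM in WT and 273, 275 and 275 in Tet2-/-. Its groups did not overlap, and the log2 fold change of 0.39 (SE 0.13) had an adjusted p of 0.34. DESeq2, run as an alternative, passed Ndufa10 as higher (0.35, adjusted p = 0.041) beside 0.522% of all genes and Cox8b, described with the isoforms below, as lower beside 2.72%, while limma passed no subunit. Without replicates 2 and 3 of WT baseline, the libraries higher in adipocyte markers, the median was 0.30 in a fit with a single WT library. Without replicate 2 of WT baseline alone it was 0.37.

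IR in WT kidney was the next comparison, 24 h after clamping against no operation. Again no subunit passed the test, with 1.88% of 16015 genes higher and 1.14% lower, although 76 of 82 log2 fold changes were negative. Of all 16015 genes 8433 had a negative value, and of 1658 tested genes of similar length 892. The median subunit stood at -0.26, against -0.03 for all genes and -0.03 for genes of similar length. Without replicate 2 of WT baseline it was -0.14 and without replicate 2 of WT IR -0.15. In the fit of all 6 libraries the medians by complex were -0.29, -0.19, -0.20, -0.28 and -0.18 for complexes I to V. At an unadjusted p under 0.05, 8 subunits were lower and 1 higher, beside 11.3 and 11.4% of all genes. In 29 subunits every WT IR library lay below every WT baseline library, beside 14.5% of all genes. DESeq2 passed 3 subunits as lower, Cox7a1, Ndufv3 and Cox8b, beside 5.45% of all genes. At either pseudocount (1 or 0.1) limma passed 1, Cox7a1, beside 0.974 and 1.16%. Without replicates 2 and 3 of WT baseline the median was -0.22 in a fit with a single WT baseline library.

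Cox7a1, the heart and muscle isoform of a small complex IV subunit, came nearest to a call in WT. It measured 24.5, 32.2 and 29.3 FPKM in WT baseline and 17.5, 9.92 and 12.4 in WT IR. The groups did not overlap, and the log2 fold change was -1.18 (SE 0.24, adjusted p = 0.053). With the replicate number as a block it was -1.20 (adjusted p = 0.035), and Cox7a1 was then the only subunit lower, beside 5.18% of all genes, a share that was 1.14% without the block. Ndufv3, an accessory subunit of the NADH-binding end of complex I, measured 77.6, 122 and 79.0 FPKM before and 68.1, 53.5 and 59.1 after IR, a log2 fold change of -0.68 (SE 0.20, adjusted p = 0.12).

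IR in Tet2-/- kidney gave another picture. Of 81 subunits tested, 70 fell and none rose, where 20.3% of 16358 genes fell and 22.9% rose. All 5 complexes took part: 35 of 37 subunits of complex I fell, 3 of 4 of complex II, 7 of 8 of complex III, 11 of 15 of complex IV and 14 of 17 of complex V. The median log2 fold change was -0.95, against 0.04 for all genes and -0.19 for genes of similar length, and it was -1.04, -0.88, -0.87, -0.86 and -0.96 for complexes I to V. At the study's further limit of a change over 2-fold, 29 subunits were lower, beside 11.6% of all genes, of which 19 belonged to complex I, 2 to complex II, 1 to complex III, 2 to complex IV and 5 to complex V. In 75 subunits every Tet2-/- IR library lay below every Tet2-/- baseline library in TMM-scaled counts, beside 27.2% of all genes.

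**Figure D2:**
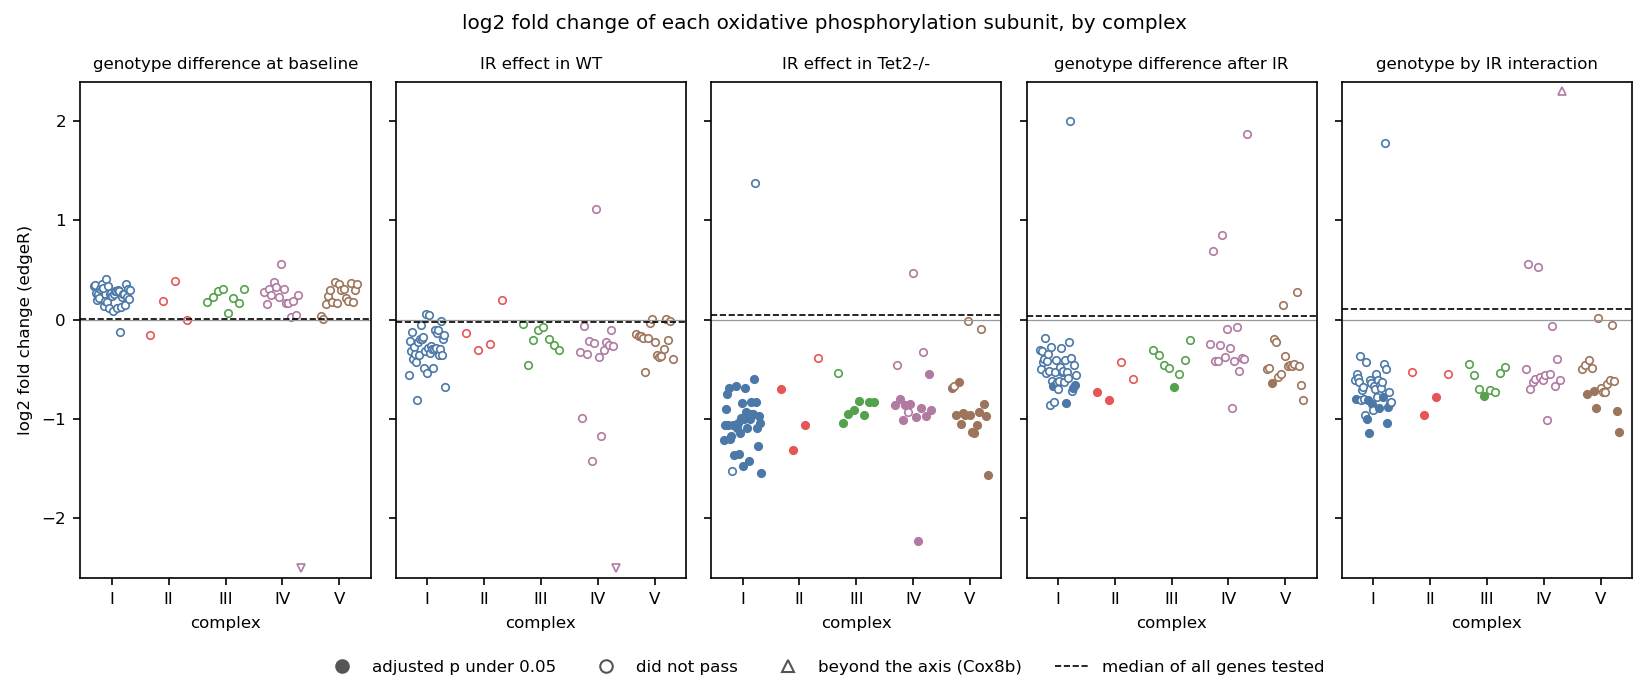
Log2 fold change of each tested subunit (vertical axis) by complex I to V (horizontal axis) in 5 panels, 1 for each comparison; filled points passed an adjusted p under 0.05, triangles mark Cox8b where it lies beyond the axis, and the dashed line is the median of all genes. Filled points make up most of the panel of IR in Tet2-/- (70 of 81) and are absent from the panels of genotype at baseline and of IR in WT.

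The scaling mattered for the level of these values. When scaled by library size only and not by TMM, the median of all genes moved from 0.04 to 0.27, the genes that rose or fell from 3741 and 3313 to 5275 and 2299, and the median subunit from -0.95 to -0.73, with 65 subunits lower. Relative to all genes the subunits stood at -1.0 on both scales. FPKM divides by the library total and not by TMM factors, so for the subunits that fell in Tet2-/- the ratios of the FPKM values below are smaller than the fold changes beside them. Leaving out each of the 6 libraries in turn left between 59 and 75 subunits lower, beside 13.7 to 21.0% of all genes, and 59 of the 70 fell in every such fit. The 75 came without replicate 3 of Tet2-/- IR, the library high in adipocyte markers, and held all of the 70. Across every alternative setting tried, 56 of the 70 passed throughout.

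Complex I, the NADH dehydrogenase, had the largest number of members and the lowest median. Its most abundant transcript by FPKM, Ndufa4 (mm9 chr6:11850373-11857446), measured 1146, 1097 and 1243 FPKM in Tet2-/- baseline and 558, 564 and 714 in Tet2-/- IR, with a log2 fold change of -1.17 (SE 0.20, adjusted p = 0.0029). In WT the same gene gave 884, 1208 and 866 FPKM at baseline and 740, 708 and 836 after IR, so that replicates 1 and 2 of Tet2-/- IR lay below the WT IR range and replicate 3 within it. Ndufv3 fell furthest within the complex, from 126, 86.7 and 109 to 36.3, 39.8 and 54.1 FPKM (log2 fold change -1.55, SE 0.23, adjusted p = 0.0017).

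The smallest passing change in complex I was that of Ndufs4, an accessory subunit whose loss causes Leigh syndrome. It went from 72.6, 53.6 and 58.2 to 47.5, 40.7 and 56.2 FPKM, a log2 fold change of -0.60 (SE 0.19, adjusted p = 0.041) with overlapping FPKM ranges. This call was kept in 1 of the 6 fits with a library left out. Ndufs1 (chr1:63190166-63223396), the large iron-sulfur protein at the NADH-oxidizing end, went from 52.5, 62.7 and 60.1 to 40.2, 40.5 and 37.0 FPKM (-0.83, SE 0.13, adjusted p = 0.0024). Its Tet2-/- IR libraries were closely grouped and all lay below every other Tet2-/- library.

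In the membrane arm, Ndufb10 (chr17:24859012-24861333) had 394, 335 and 358 FPKM before and 130, 168 and 209 after IR in Tet2-/- (-1.35, SE 0.21, adjusted p = 0.0022). Ndufc1, another accessory subunit of that arm, had 164, 150 and 177 before and 59.3, 79.5 and 80 after (-1.42, SE 0.16, adjusted p = 0.00058). Both the NADH-oxidizing arm and the membrane arm were therefore represented among the subunits that fell. The 2 members of complex I that did not pass were Ndufa4l2 and Ndufs5, which are described with the isoforms and the copied genes.

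Complex II, succinate dehydrogenase, belongs to both the respiratory chain and the tricarboxylic acid cycle and has no mitochondrially encoded subunit. Sdhb (chr4:140517186-140535107), its iron-sulfur subunit, measured 364, 331 and 415 FPKM in Tet2-/- baseline and 176, 172 and 187 in Tet2-/- IR, a log2 fold change of -1.31 (SE 0.17, adjusted p = 0.001). In WT it measured 360, 358 and 324 before and 337, 256 and 285 after (-0.31, SE 0.15, adjusted p = 0.27). The 3 Tet2-/- IR libraries thus lay below all of the other 9.

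Sdhc (chr1:173059288-173080734) went from 273, 275 and 275 to 133, 162 and 175 FPKM in Tet2-/- (-1.06, SE 0.17, adjusted p = 0.0022). Sdha (chr13:74459703-74487688), the flavoprotein that oxidizes succinate, went from 135, 161 and 175 to 122, 113 and 112 (-0.70, SE 0.18, adjusted p = 0.015). Its call was kept in 4 of the 6 fits with a library left out. Sdhd (chr9:50404445-50411954), the other membrane anchor, had 175, 199 and 201 before and 167, 177 and 181 after, with overlapping FPKM ranges and no call (-0.39, SE 0.15, adjusted p = 0.067). The 4 subunits of this complex therefore spanned -1.31 to -0.39.

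Complex III carries electrons from ubiquinol to cytochrome c. Uqcr10, a small subunit and the most abundant of the complex by FPKM, measured 646, 546 and 629 before and 387, 486 and 619 after IR in Tet2-/-, where replicate 3 reached the baseline range. It did not pass (-0.53, SE 0.22, adjusted p = 0.082) but did with the replicate number as a block (-0.57, adjusted p = 0.047), a fit in which 72 subunits and 21.4% of all genes were lower. Uqcr11, likewise small, had the lowest value of the complex, from 412, 346 and 430 to 182, 229 and 274 FPKM (-1.05, SE 0.20, adjusted p = 0.0052). The large matrix-facing core protein Uqcrc2 fell from 180, 191 and 204 to 139, 119 and 130 (-0.82, SE 0.16, adjusted p = 0.006).

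Complex IV, cytochrome c oxidase, had the smallest share of falling subunits and the single largest passing change, that of Cox7a1, described with its isoform partner. Cox8a, a small subunit and the most abundant of the complex by FPKM, measured 1155, 950 and 1084 before and 595, 598 and 819 after (-0.91, SE 0.22, adjusted p = 0.013). Cox7c had the smallest passing change, from 29.9, 29.5 and 35.5 to 23.1, 24.7 and 29.3 FPKM (-0.55, SE 0.18, adjusted p = 0.042), and passed in 1 of the 6 fits with a library left out. Cox7a2l, which helps complexes III and IV to join in supercomplexes, had 74.7, 75.4 and 88.4 before and 63.1, 82.2 and 82.0 after, with overlapping groups and no call (-0.33, SE 0.16, adjusted p = 0.13).

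Complex V is the ATP synthase. Its catalytic beta subunit Atp5b (chr10:127520363-127527444), the most abundant of all 84 transcripts by FPKM, measured 1128, 1264 and 1440 before and 1012, 881 and 990 after IR in Tet2-/-, without overlap. The adjusted p of 0.053 narrowly missed the threshold (-0.66, SE 0.23). Atp5d, of the central stalk, had the smallest passing change, from 511, 456 and 544 to 344, 389 and 432 FPKM (-0.63, SE 0.18, adjusted p = 0.026). With a library left out, Atp5d passed in 1 of 6 fits.

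The largest change under an Atp5 name was that of Atp5sl (chr7:26404512-26410569), which despite its name acts in the assembly of complex I. It fell from 35.7, 32.2 and 34.4 to 12.6, 16.8 and 12.1 FPKM (-1.57, SE 0.13, adjusted p = 0.00021), while in WT it measured 27.6, 31.6 and 26.0 before and 28.3, 17.2 and 21.8 after. Replicate 1 of WT IR lay within the WT baseline range, and all Tet2-/- IR libraries lay below the WT IR range.

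**Figure D3:**
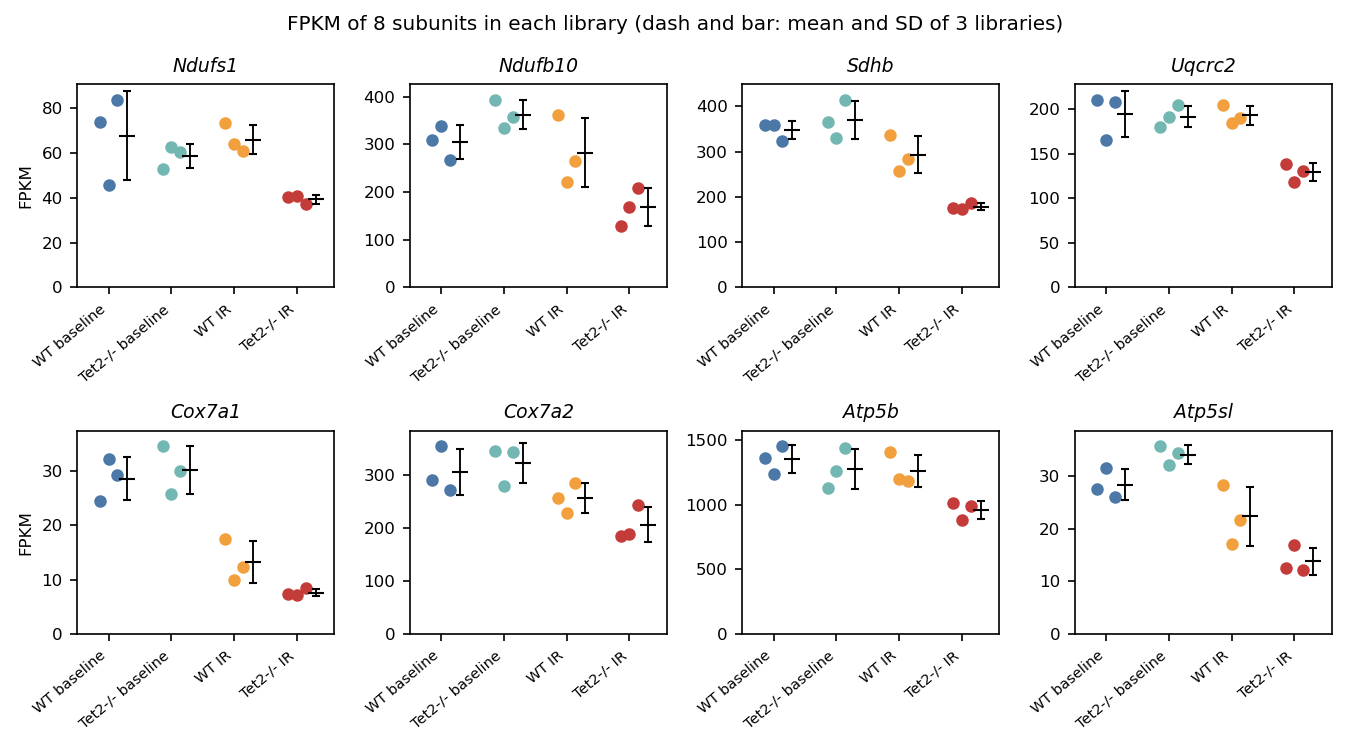
FPKM (vertical axes, starting at 0) of Ndufs1, Ndufb10, Sdhb, Uqcrc2, Cox7a1, Cox7a2, Atp5b and Atp5sl in the 4 groups; points are single libraries, and the dash and bar beside them the group mean and SD (n = 3). In Sdhb the Tet2-/- IR libraries lie between 172 and 187 FPKM and the other 9 between 256 and 415.

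After IR, the injured kidneys of both genotypes were compared directly. Of 82 subunits, 8 were lower in Tet2-/- and none higher, beside 6.17 and 3.51% of 16186 genes. The 8 were Ndufs1, Ndufa9, Ndufs8 and Ndufv2 of complex I, Sdhb and Sdha of complex II, Uqcrc2 of complex III and Atp5c1 of complex V, with none from complex IV. The median of all tested subunits was -0.46, against 0.04 for all genes and -0.02 for genes of similar length, and 76 of 82 had a negative sign. So had 7538 of all 16186 genes and 880 of 1696 tested genes of similar length. The medians by complex were -0.52, -0.66, -0.43, -0.33 and -0.47 for complexes I to V. At an unadjusted p under 0.05, 41 subunits were lower, beside 15.0% of all genes, and in 38 every Tet2-/- IR library lay below every WT IR library, beside 18.5%.

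Ndufs1 measured 73.1, 63.8 and 60.6 FPKM in WT IR and 40.2, 40.5 and 37.0 in Tet2-/- IR, a log2 fold change of -0.84 (SE 0.13, adjusted p = 0.016). Sdhb was lower by a similar amount at 337, 256 and 285 against 176, 172 and 187 FPKM (-0.81, SE 0.18, adjusted p = 0.035). Sdha followed with 193, 170 and 172 against 122, 113 and 112 (-0.73, SE 0.16, adjusted p = 0.038). In all 3 genes the lowest WT IR library was above the highest Tet2-/- IR library.

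Uqcrc2 measured 205, 184 and 191 against 139, 119 and 130 FPKM (-0.68, SE 0.17, adjusted p = 0.049), and Atp5c1, the gamma subunit that rotates within the ATP synthase, 205, 179 and 188 against 125, 131 and 137 (-0.64, SE 0.16, adjusted p = 0.050). The 3 remaining complex I genes, Ndufs8 and Ndufv2 with iron-sulfur centres and Ndufa9 beside the ubiquinone site, had values of -0.69, -0.66 and -0.67. Their SEs were 0.16 each and their adjusted p-values 0.042, 0.048 and 0.043. Ndufv2, with the smallest passing value in the complex, measured 91, 79.1 and 92.9 FPKM in WT IR and 56.3, 58.9 and 63.1 in Tet2-/- IR, without overlap. These calls lay close to the threshold and depended on the libraries used.

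None of the 8 was kept when each library was left out in turn. Without replicate 1 or without replicate 3 of WT IR no subunit passed, without replicate 2 of WT IR 6 passed, and without replicates 1, 2 or 3 of Tet2-/- IR 1, 1 and 4 passed, while 1.52 to 4.79% of all genes were lower in these fits. Without replicate 3 of Tet2-/- IR, high in adipocyte markers, Sdhb, Sdha, Uqcrc2, Atp5c1 and Ndufv2 were at -0.90, -0.75, -0.73, -0.72 and -0.76 (adjusted p = 0.052, 0.063, 0.069, 0.056 and 0.053). Ndufs1 passed in 4 of these 6 fits. DESeq2 found 30 subunits lower, beside 11.3% of all genes, and the fit of all 12 libraries 27, beside 10.3%. The median ranged from -0.61 to -0.38 with a library left out.

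The interaction asked directly whether the IR difference itself differed between genotypes. For 18 of 82 subunits the IR difference was more negative in Tet2-/- than in WT, and for none more positive, beside 5.38 and 3.78% of 16741 genes. Of the 18, 10 belonged to complex I, 2 to complex II, 1 to complex III, none to complex IV and 5, by symbol, to complex V, with Atp5s and Atp5sl among them. The median interaction term was -0.64 against 0.10 for all genes and -0.09 for genes of similar length, and 77 of 82 terms were negative. Negative terms were found for 7228 of all 16741 genes and 983 of 1793 tested genes of similar length. By complex the medians were -0.70, -0.67, -0.63, -0.57 and -0.65. A term beyond 2-fold was found for 3 of the 18, beside 3.95% of all genes, and 53 subunits had a negative term at an unadjusted p under 0.05, beside 12.6%.

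Ndufb10 had the largest term of the 18, -1.14 (SE 0.30, adjusted p = 0.039): the WT libraries measured 310, 338 and 266 FPKM before and 362, 220 and 265 after IR, against 394, 335 and 358 and then 130, 168 and 209 in Tet2-/-. WT baseline and WT IR overlapped, whereas the Tet2-/- groups were apart. Atp5sl had a term of -1.13 (SE 0.23, adjusted p = 0.015), and Sdhb, the larger of those in complex II, had a term of -0.96 (SE 0.21, adjusted p = 0.021). Sdhc had a term of -0.78 (SE 0.20, adjusted p = 0.037), from 214, 254 and 203 to 220, 187 and 184 FPKM in WT and from 273, 275 and 275 to 133, 162 and 175 in Tet2-/-.

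For Uqcrc1, the other core protein of complex III, the term was -0.76 (SE 0.20, adjusted p = 0.040), with 262, 287 and 235 going to 299, 234 and 229 FPKM in WT and 313, 280 and 319 to 196, 186 and 197 in Tet2-/-. For Atp5c1 it was -0.75 (SE 0.20, adjusted p = 0.039). In both genes the Tet2-/- IR libraries were the 3 lowest of the 12.

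The smallest passing terms of complexes I and V belonged to Ndufs3, of the ubiquinone-binding part of complex I, and Atp5f1, of the stator stalk of the ATP synthase. Ndufs3 measured 112, 109 and 105 FPKM before and 115, 90.8 and 103 after IR in WT, against 119, 117 and 124 before and 67.6, 73.5 and 79.7 after in Tet2-/-, with a term of -0.78 (SE 0.18, adjusted p = 0.025). Atp5f1 measured 243, 235 and 250 before and 232, 207 and 228 after in WT, against 236, 265 and 271 before and 150, 155 and 172 after in Tet2-/-, with a term of -0.72 (SE 0.20, adjusted p = 0.047). For these genes too, all Tet2-/- IR libraries lay below the other 9.

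The number of interaction calls moved with single libraries, as did that of all genes, of which 485 to 1064 (2.86 to 6.27%) had a negative term with a library left out. For the subunits it was 8, 19 and 8 without replicates 1, 2 and 3 of WT baseline, 9, 9 and 4 without those of Tet2-/- baseline, 5, 29 and 4 without those of WT IR, and 7, 9 and 41 without those of Tet2-/- IR. Atp5s, Atp5sl and Ndufa10 passed in every one of these 12 fits. Without replicate 3 of WT baseline, high in adipocyte markers, Ndufb10, Sdhc, Uqcrc1 and Atp5c1 had terms of -1.07, -0.73, -0.71 and -0.80 (adjusted p = 0.080, 0.073, 0.080 and 0.058). Without replicate 2, Ndufb10 and Atp5c1 had terms of -1.28 and -0.76 (adjusted p = 0.051 and 0.058). Atp5f1 passed in neither of these fits, and in 2 of all 12. Atp5g1, Ndufa8, Ndufb3, Ndufc1 and Ndufs7 also lost their calls without replicate 3. Without the 3 libraries highest in adipocyte markers (replicates 2 and 3 of WT baseline and replicate 3 of Tet2-/- IR), which leaves a single WT baseline library, no subunit passed and only 3 of 17166 genes did, while the median term was -0.89. With the replicate number as a block, 14 subunits passed, 12 of them among the 18, beside 6.43% of all genes. Atp5f1, Atp5g1, Ndufa8, Ndufb3, Sdhc and Uqcrc1 were then above the threshold at adjusted p-values of 0.054, 0.083, 0.070, 0.055, 0.051 and 0.053, and Ndufc2 and Ndufv1 came below it at 0.049 and 0.049.

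**Figure D4:**
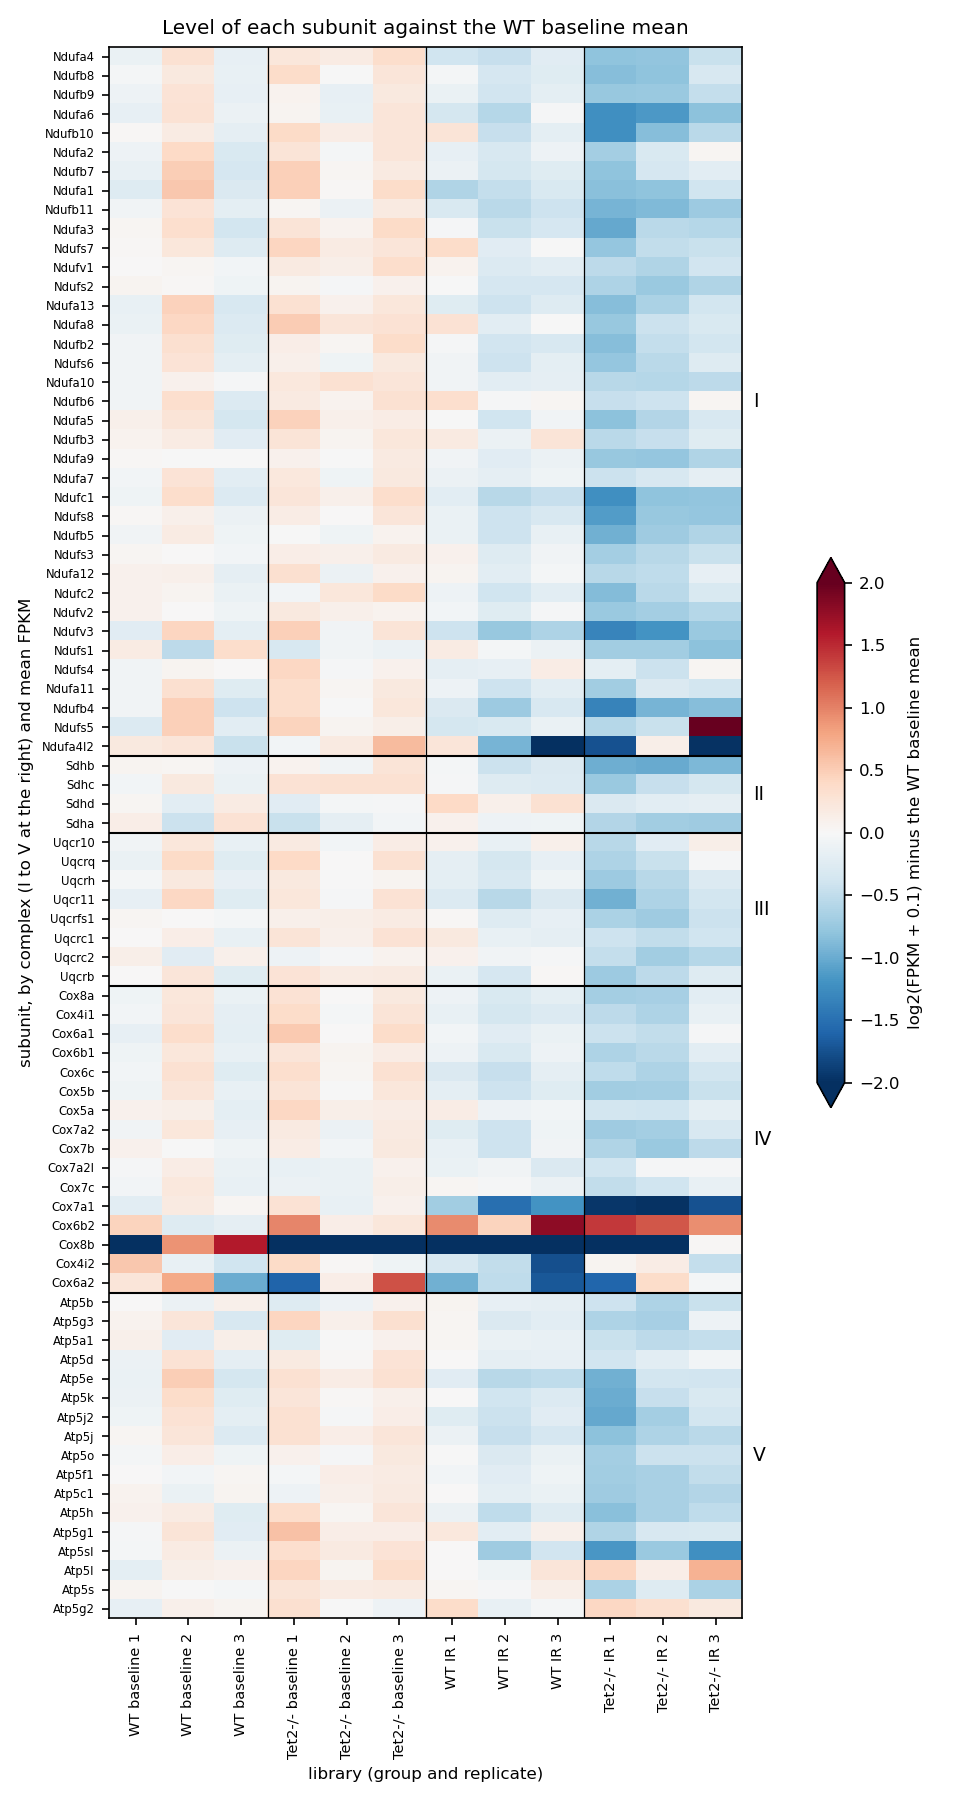
Level of the 82 tested subunits (vertical axis, by complex and mean FPKM) in the 12 libraries (horizontal axis, by group), as log2(FPKM + 0.1) minus the mean of WT baseline, from blue (lower) to red (higher). Most genes are blue in all 3 libraries of Tet2-/- IR, whereas Ndufs5 in replicate 3 and Cox6b2, Atp5l and Atp5g2 in all 3 are red.

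Complex IV is unusual in having isoforms of restricted tissue use beside broadly used ones, and the pairs could be set side by side. The broad forms Cox4i1, Cox6a1, Cox6b1, Cox7a2 and Cox7b all fell with IR in Tet2-/-, by 0.86, 0.86, 0.85, 0.90 and 0.97 on the log2 scale (adjusted p = 0.018, 0.021, 0.0094, 0.0089 and 0.003). With a library left out, Cox4i1 passed in 3 of 6 fits and Cox6a1 in 2, while Cox6b1, Cox7a2 and Cox7b passed in all 6. Cox4i1 as an example, the subunit through which ATP slows the oxidase, measured 1102, 836 and 1025 FPKM before and 599, 562 and 771 after, against 670 to 1017 over the 6 WT libraries. Cox7a2 measured 345, 279 and 344 before and 185, 188 and 244 after, against 290, 354 and 271 and then 257, 228 and 285 in WT. For both, the Tet2-/- groups were apart and the WT groups overlapped.

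Cox6a1 went from 1136, 797 and 1025 to 591, 562 and 780 FPKM in Tet2-/-, with 709, 1016 and 694 and then 763, 680 and 724 in WT. Cox6b1, on the intermembrane-space side of the oxidase, went from 764, 676 and 721 to 421, 445 and 560 in Tet2-/-, with 613, 757 and 588 and then 607, 524 and 602 in WT. Cox7b went from 263, 228 and 271 to 156, 141 and 165 in Tet2-/-, with 253, 237 and 223 and then 215, 179 and 226 in WT. These 3 showed the same layout, apart in Tet2-/- and overlapping in WT.

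Cox7a1 (chr7:30969190-30971049), the restricted partner of Cox7a2, went from 34.6, 25.8 and 30.1 FPKM in Tet2-/- baseline to 7.32, 7.18 and 8.41 in Tet2-/- IR, a log2 fold change of -2.23 (SE 0.21, adjusted p = 0.0003). No other subunit that passed changed as much. Between genotypes after IR its log2 fold change was -0.89 (SE 0.29, adjusted p = 0.099), and its interaction term was -1.02 (SE 0.31, adjusted p = 0.064), so neither genotype difference passed.

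The other restricted forms were scarce and mostly without a call. Cox6b2, known from testis, measured 3.04 to 5.04 FPKM in WT baseline, 4.06 to 7.31 in Tet2-/- baseline, 5.03 to 12.9 in WT IR and 7.12 to 9.94 in Tet2-/- IR, and its IR difference in Tet2-/- was 0.47 (SE 0.28, adjusted p = 0.21). Cox4i2, the lung form, stayed between 0.168 and 1.22 FPKM in all libraries and Cox6a2, the muscle form, between 0.146 and 1.82, with IR differences in Tet2-/- of -0.46 (SE 0.33, adjusted p = 0.29) and -0.93 (SE 0.86, adjusted p = 0.41). Cox7b2 reached at most 0.042 FPKM and Cox8c was at 0 in every library, so neither was tested. Ndufa4l2, a relative of Ndufa4 that is induced by hypoxia, measured 2.02, 2.4 and 3.30 FPKM before and 0.561, 2.29 and 0.459 after IR in Tet2-/- (-1.52, SE 0.59, adjusted p = 0.069; -1.81, adjusted p = 0.025 with the replicate number as a block).

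Cox8b (chr7:148084841-148086345), the form of heart, muscle and brown fat, varied widely within groups. It measured 0.874, 10 and 16.1 FPKM in WT baseline, 0.335, 0.12 and 0.118 in Tet2-/- baseline, 1.0, 0.305 and 0.177 in WT IR and 0.025, 0.022 and 5.39 in Tet2-/- IR. The 3 high libraries were those with the most adipocyte transcripts. Brown adipocyte markers summed to 27.4 and 43.8 FPKM in replicates 2 and 3 of WT baseline and to 20.5 in replicate 3 of Tet2-/- IR, against 18.4 to 27.8 in the other 9 libraries, and muscle markers to 1.09 to 2.75 in all 12. The brown adipocyte sum includes Ppara, which is also listed among the transcriptional regulators. In the interaction, 2 of 6 tested brown adipocyte markers passed as higher, Cidea (9.31) and Ucp1 (11.1), and none as lower. Cox8b had too few counts in the Tet2-/- groups to be tested for IR in Tet2-/-. At baseline its log2 fold change was -5.58 (SE 1.10, adjusted p = 0.21), and without replicate 1 of WT baseline it was -6.12 (adjusted p = 0.034), while its IR difference in WT was -4.28 (SE 1.10, adjusted p = 0.086). DESeq2 passed both (-5.55, adjusted p = 1.2e-07, and -4.26, adjusted p = 0.00011). Without replicates 2 and 3 of WT baseline, which leaves a single WT baseline library, the values were -2.22 (adjusted p = 0.61) at baseline and -0.93 (adjusted p = 0.70) for IR in WT.

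Some subunits have copies of nearly the same sequence at other places in the genome, among which reads cannot be assigned with certainty. In mm9, 12 of the 84 transcripts matched another place at 95% identity or more over at least 80% of their length, and Ndufs5, Cox5b, Atp5l and Atp5g2 at 99% or more. Of these 4, 1 was among the subunits that fell with IR in Tet2-/-, against 8 of 8 with copies only at the lower identity and 61 of 69 tested without a copy.

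Ndufs5 (chr4:123389953-123395429) measured 5.10, 3.88 and 4.04 FPKM in Tet2-/- baseline and 2.49, 2.71 and 33.0 in Tet2-/- IR, so replicate 3 alone gave the positive value of 1.37 (SE 0.97, adjusted p = 0.29), and without it the value was -1.05 (adjusted p = 0.020). Atp5l, subunit g of the ATP synthase, measured 17.9, 13.8 and 17.0 before and 18, 14.5 and 21.5 after (-0.09, SE 0.23, adjusted p = 0.76). Atp5g2, 1 of 3 genes for the ring subunit c, measured 2.15, 1.69 and 1.57 before and 2.27, 2.13 and 1.96 after (-0.02, SE 0.27, adjusted p = 0.97). The last 2 had overlapping groups, and their sign changed with the scaling: when scaled by library size only they stood at 0.12 and 0.21.

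Summed levels followed the same pattern. All 84 subunits together stood at 89.9 to 113.9% of the WT baseline mean in WT baseline, 100.7 to 115.1% in Tet2-/- baseline, 79.7 to 94.5% in WT IR, and 62.3, 66.1 and 79.1% in Tet2-/- IR. In Tet2-/- IR the mean was 64.2% for complex I, 64.9% for complex II, 73.9% for complex III, 72.7% for complex IV and 70.2% for complex V. The genes most like the mean of their own complex over the 12 libraries, by Pearson r of log2(FPKM + 0.1), were Ndufc1 (0.983), Atp5h (0.982) and Ndufb8 (0.981), given as a description since all genes of a library share its depth and composition.

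Genes that serve the same chain under other names were counted from lists, to be read beside the shares of all genes given above: 20.3% fell and 22.9% rose with IR in Tet2-/-, 6.17% were lower in Tet2-/- after IR and 5.38% had a negative interaction. Of 9 further subunits and electron carriers, 7 fell with IR in Tet2-/-, from Etfb (-1.38), which with Etfa delivers electrons from fatty acid oxidation, to Cyc1 (-0.67), the cytochrome c1 of complex III. Cycs, which encodes cytochrome c, and Etfdh did not pass (-0.52 and 0.14). Ndufab1, the acyl carrier subunit of complex I, went from 65.0, 66.1 and 66.1 to 35.7, 37.9 and 37.4 FPKM. After IR, Etfb, Etfa and Ndufab1 were lower in Tet2-/- than in WT, and the interaction passed for the same 3 genes.

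Of 47 assembly factors, 23 fell in Tet2-/-, with Acad9, needed to build complex I, at -1.45, and 1 rose, Pet117, a complex IV assembly factor, at 1.40. After IR 8 of them were lower in Tet2-/- than in WT, from Lyrm7 (-1.36) to Foxred1 (-0.64), and 10 passed in the interaction. Of 17 other enzymes of the tricarboxylic acid cycle and its entry, 10 fell in Tet2-/-, from Idh2 (-1.36) to Dld (-0.46). After IR 5 of them were lower in Tet2-/- than in WT and 3 passed in the interaction. None of these lists had a passing gene for IR in WT or for genotype at baseline.

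Among 15 transcriptional regulators of mitochondrial genes the directions were mixed. With IR in Tet2-/-, Esrrb, Esrra, Polrmt, Ppargc1a and Tfam fell (-1.18, -1.17, -0.69, -0.69 and -0.41), whereas Nrip1, Pprc1 and Ppara rose (1.69, 1.33 and 0.69). The factors of the searched motifs, Nrf1, Gabpa and Yy1, stood at 0.23, -0.16 and 0.16 without passing. Esrra, the estrogen-related receptor alpha that drives many oxidative genes, measured 49.4, 57.7 and 57.5 FPKM in WT baseline, 58.9, 54.6 and 57.8 in Tet2-/- baseline, 63.8, 45.6 and 50.5 in WT IR and 24.9, 36.5 and 29.9 in Tet2-/- IR. It was the only regulator that passed in the interaction (-1.03, adjusted p = 0.015), and with Esrrg it was lower in Tet2-/- than in WT after IR (-0.91 and -0.71).

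Cell type markers moved with the same groups. Proximal tubule markers summed to 2839 to 3117 FPKM in WT baseline, 2673 to 3429 in Tet2-/- baseline, 1813 to 2414 in WT IR and 628 to 874 in Tet2-/- IR, the last being 20.9 to 29.1% of the WT baseline mean. Of 10 such markers 7 fell with IR in Tet2-/-, among them Slc34a1, the phosphate transporter of this segment, at -3.08, and 6 were lower in Tet2-/- than in WT after IR. Of 8 thick ascending limb and distal tubule markers 3 fell in Tet2-/-, Pvalb, Slc12a1 and Calb1 (-3.94, -2.05 and -1.24). Another 4 had negative values that did not pass, and Umod stood at 0.33 (adjusted p = 0.69). Their sum, at 2210, 2750 and 430 FPKM in Tet2-/- IR, was in replicates 1 and 2 the highest of the 12 libraries and in replicate 3 the lowest. Leukocyte markers summed to 20.5 to 27.6, 22.0 to 35.1, 16.9 to 30.2 and 95.7 to 171 FPKM in the 4 groups in the same order, and S100a8, S100a9, Cd14 and Itgam rose with IR in Tet2-/- while Csf1r fell. All 10 proximal tubule markers were measured above 0 in every library. The part that such shifts in cell makeup took in the lower subunit levels was not tested.

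**Figure D5:**
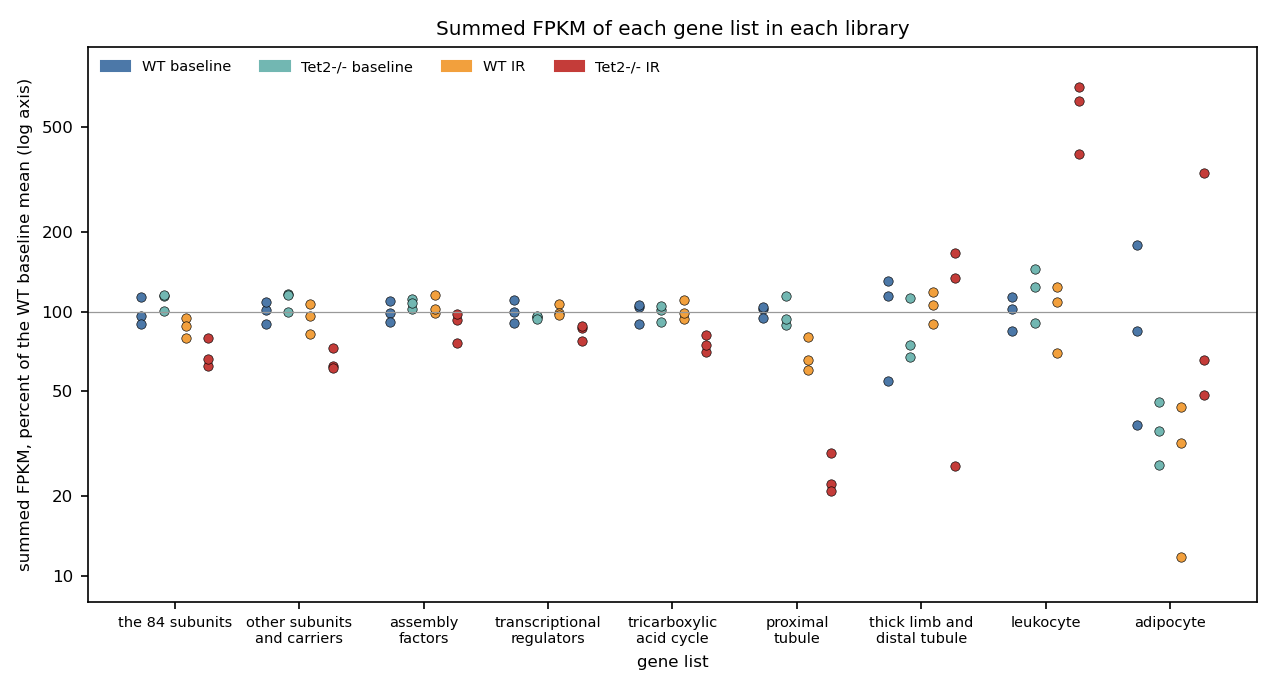
Summed FPKM of the 84 subunits, 4 related gene lists and 4 lists of cell type markers (horizontal axis), as percent of the WT baseline mean (vertical log axis), in the 4 groups; points are single libraries. In Tet2-/- IR all 84 subunits lie between 62.3 and 79.1% and the proximal tubule markers between 20.9 and 29.1%.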

How the data were processed

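The 12 libraries were aligned by the authors to mm9 with STAR and counted on RefSeq transcripts with HOMER, at versions not given in the sources used here. The deposited raw table holds estimated counts in steps of 0.5 (38.7% of its values are not whole), although whole counts had been assumed, so they were rounded. The deposited FPKM table divides by length and library total. The 84 subunits and the gene lists were chosen with earlier results of these data known, and any subunit could be named. Values in the libraries compared are given for the most abundant gene of each complex, the lowest and highest passing genes of each complex and comparison, the tissue isoforms with their partners, and the Sdh genes.

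Of 34600 transcripts, 1 for each symbol was tested with edgeR 4.0.16 (R 4.3.3): TMM, filterByExpr, quasi-likelihood test, Benjamini-Hochberg adjustment over all genes tested, two-sided, own 6 libraries per comparison and 12 for the interaction. SEs are the absolute log2 fold change divided by the square root of F. The labels give no sequencing batch. Depth was 51007362 to 107969879 counts per library over the transcripts used. The fits were tested on simulated data. Alternatives were DESeq2 1.42.0, limma 3.58.1 on log2(FPKM + 1) and log2(FPKM + 0.1), other scalings and filters, a length trend, all transcripts, a joint fit and left-out libraries.

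Replicate numbers come from the sample titles, and the animals differ. The deviations of same-numbered libraries from their group means correlated at 0.380, 0.363 and 0.358 for IR in WT and 0.135, 0.359 and 0.222 for IR in Tet2-/-, so blocked values stand beside those results and the interaction. This pairing is a hint from the data and not part of the design.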

Additional observations from a re-analysis of the deposited data

Results flagged for a closer look

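For 18 subunits the difference between IR and baseline itself differed between the genotypes, by the interaction term of the edgeR quasi-likelihood test at an adjusted p under 0.05, beside 5.38% of all genes. In each the IR difference was more negative in Tet2-/- than in WT. In complex I the terms (log2 scale) were -1.14 for Ndufb10, -1.04 for Ndufs7, -1.0 for Ndufa8, -0.89 for Ndufc1, -0.88 for Ndufs8, -0.85 for Ndufb3, -0.84 for Ndufv2, -0.81 for Ndufa9, -0.80 for Ndufa10 and -0.78 for Ndufs3. In complex II they were -0.96 for Sdhb and -0.78 for Sdhc, and in complex III -0.76 for Uqcrc1. Under Atp5 names they were -1.13 for Atp5sl, -0.92 for Atp5s, -0.89 for Atp5g1, -0.75 for Atp5c1 and -0.72 for Atp5f1. Of the 18, 3 passed with every library left out in turn (Atp5s, Atp5sl and Ndufa10). With the replicate number as a block, Atp5f1, Atp5g1, Ndufa8, Ndufb3, Sdhc and Uqcrc1 did not pass.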

How the results depend on the processing

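Depth was not limiting for most subunits, but Cox7b2 and Cox8c had too few counts to test, and Cox8b in IR in Tet2-/-. The signs of the medians held in every fit with a library left out: 0.17 to 0.37 for genotype at baseline, -0.61 to -0.38 for genotype after IR, -0.32 to -0.14 for IR in WT, -1.10 to -0.86 for IR in Tet2-/- and -0.81 to -0.56 for the interaction. Counts of subunits moved more, and where no cause is named it was not tested.

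At baseline DESeq2 gave 1 higher and 1 lower (Ndufa10 and Cox8b), and left-out libraries 0 to 1 lower. After IR the count of lower subunits was 30 with DESeq2, 4 without a filter on low counts (4.82% of subunits against 4.54% of all genes), 27 in the fit of all 12 libraries, 0 over 2-fold (623 of 16186 genes) and 0 to 6 with libraries left out. For IR in WT it was 3 with DESeq2, 1 without a filter (1.04% of all genes), 1 with either limma pseudocount (1 or 0.1), 1 with the replicate block, 1 in the fit of all 12 libraries (2.43%) and 0 to 1 with libraries left out (0.222 to 1.37%). For IR in Tet2-/- it was 59 to 75 with libraries left out and 29 over 2-fold. In that comparison 1 subunit, Cox6b2, was higher with limma at a pseudocount of 0.1 (32.6% of all genes). The same subunit alone was higher with the length trend taken out (23.0%). The median there was -0.73 with library sizes alone, -0.70 with either limma pseudocount and -0.70 with the length trend taken out. For the interaction, lower subunits numbered 34 with DESeq2 (9.55% of all genes), 11 with limma at a pseudocount of 1 (3.56%), 3 over 2-fold, 4 to 41 with libraries left out and 0 without the 3 libraries highest in adipocyte markers, a setting chosen after seeing the data that leaves 1 WT baseline library and passed 3 of 17166 genes. The median term was then -0.89. DESeq2 gave 1 higher, Cox8b (7.22% of all genes), and left-out libraries 0 to 1, the 1 without replicate 2 of Tet2-/- IR (2.51%). With library sizes alone the median of all genes moved from 0.10 to 0.24 for the interaction and from 0.04 to 0.14 for genotype after IR.

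For single genes in IR in Tet2-/- the sign changed in 4. With a library left out the values were -1.05 to 1.88 for Ndufs5, -1.42 to 0.038 for Cox6a2, -0.30 to 0.10 for Atp5l and -0.096 to 0.11 for Atp5g2. Atp5l stood at 0.12 with library sizes alone, 0.13 and 0.14 with limma, and 0.29 with the length trend taken out. Atp5g2 stood at 0.21, 0.16 and 0.23, and 0.32 under those settings and at 0.025 in the fit of all 12 libraries. Between genotypes, deviations of same-numbered libraries correlated at -0.186, -0.167 and 0.071 at baseline, where the numbers showed no pairing. After IR they correlated at 0.003, 0.230 and 0.320, which leaves a pairing undecided. The replicate block gave 0 at baseline and 9 lower after IR (5.88% of all genes), 7 of them among the 8. Ndufs8 (0.051) was lost, and Ndufa6 (0.024) and Ndufb3 (0.043) were gained.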
